A study of Mus musculus with 6 samples.

Results

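A set of 10 nuclear genes whose proteins make, process, stabilise or degrade the RNA of mitochondria was followed in the testes of wild-type and KIFC1 knockout mice: Polrmt, Tfam, Tfb2m, Lrpprc, Slirp, Pnpt1, Supv3l1, Mtpap, Elac2 and Trmt10c. They are 10 of the 51826 Ensembl genes in the count files and 10 of the 21518 that passed the filter on low counts. The set was chosen from measured values of other genes, because the mRNAs of the mitochondrial genome were higher in knockout. The counts of the 10 genes themselves did not enter the choice, but the contrast is the same, so their values are given as a description of these samples and nothing about the set is tested. None of the 10 genes passed the edgeR test of knockout against wild type, which called 3.11% of all genes tested higher and 5.12% lower. DESeq2, as an alternative, called 1, Pnpt1 (DESeq2 adjusted p = 0.0317), with 7.11% of all genes called higher and 8.15% lower. Tfb2m, Pnpt1 and Mtpap were higher in every knockout library than in every wild-type library, by 1.34-fold, 1.45-fold and 1.24-fold, as were 14.6% of all genes tested, with 18.1% lower in every knockout library. With trends of each library with base composition and exon length removed, their log2 fold changes were 0.25, 0.14 and 0.07. The groups then stayed apart for Tfb2m only, against 13% of all genes tested higher in knockout and 14.5% lower. The levels of Polrmt, Tfam and Slirp varied among the knockout libraries by more than the group means differed.

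The mitochondrial genome is copied into long transcripts that are cut into mRNAs, rRNAs and tRNAs. POLRMT is the mitochondrial RNA polymerase, TFAM bends and coats the DNA and recruits the polymerase to its promoters, and TFB2M opens the promoter. The tRNAs that lie between the other genes are cut out at their 5′ end by mitochondrial RNase P, of which TRMT10C is a subunit, and at their 3′ end by ELAC2. LRPPRC and SLIRP form a complex that holds mitochondrial mRNAs stable, MTPAP adds their poly(A) tails, and the exonuclease PNPT1 with the helicase SUPV3L1 degrades RNA in the matrix. In mouse testis a Tfam transcript is known whose protein lacks the mitochondrial import signal, and counts per gene do not separate it from the mitochondrial form.

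RNA of whole testes was sequenced from C57BL/6J mice at 8 weeks of age, in 3 samples of wild type (wild type 1, 2 and 3) and 3 samples of KIFC1 knockout (knockout 1, 2 and 3). KIFC1 is a kinesin-14 motor, and the series concerns its part in meiotic recombination and male fertility. The labels give no other allele, treatment or Cre driver, no description of the deleted part of the gene and no count of animals. What p-values measure is thus the variation among these 6 samples, part of which may be technical.

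Libraries held 29274603 to 38703606 counts, and values below are counts per 1000000 counts after TMM scaling (CPM). Kifc1 stood at 14.7 to 16.1 CPM in the wild-type libraries and 0.282 to 0.737 CPM in the knockout ones. All 10 germ cell markers and all 10 markers of Sertoli, Leydig and myoid cells passed the filter. The 2 germ cell markers that passed the test, Prm1 (log2 fold change -0.66, edgeR adjusted p = 0.0450) and Tnp2 (-0.63, adjusted p = 0.0451), which package sperm DNA, fell. Of the 10, 5 had estimates above 0, among them Acr at 0.64 and Acrv1 at 0.50, and 5 below. None of the somatic markers passed. The sum of the germ cell markers, most of which came from Tnp1, Tnp2, Prm1 and Prm2, was 15063.5 to 17031 CPM in the wild-type libraries and 10275 to 11880 CPM in knockout, and the somatic markers 1146 to 2010 CPM and 1602 to 2562 CPM. Of 8 markers of epididymis, red and white blood cells and liver, 3 were at 0 in every library, and the list summed to 25.2 to 65.3 CPM in the wild-type libraries and 17.9 to 39.1 CPM in knockout. In bulk testis, fewer cells of a type and less RNA per cell cannot be told apart, and the part of cell makeup in the values below was not tested. The libraries also differed in base composition. Over 12751 genes, which are not independent replicates, the deviation of a library from the mean of all libraries correlated with the GC content of exons at a Spearman rho of 0.269, 0.533 and 0.526 in wild type 1, 2 and 3, and of -0.281, -0.677 and -0.128 in knockout 1, 2 and 3. The fold change of each of the 10 genes is therefore also given with these trends, and those with exon length, removed.

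The stretches before Polrmt, with the lowest level in knockout 2 and both motifs, and Pnpt1, with the largest estimate and neither motif, are printed because the nuclear factors NRF1 and NRF2, the latter an ETS-family factor also called GABP, are known regulators of genes for mitochondrial transcription. Each is the 150 bases before the RefSeq start site on GRCm38.p6, 5′ to 3′ along the gene, with letters of the NRF1 motif (GCATGCGC) and of the ETS motif (CCGGAAG), on either strand, in capitals.
Polrmt, chr10:79746582-79746731, minus strand: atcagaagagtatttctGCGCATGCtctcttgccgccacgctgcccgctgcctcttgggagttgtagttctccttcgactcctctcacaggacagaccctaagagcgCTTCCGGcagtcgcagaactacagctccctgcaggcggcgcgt
Pnpt1, chr11:29130594-29130743, plus strand: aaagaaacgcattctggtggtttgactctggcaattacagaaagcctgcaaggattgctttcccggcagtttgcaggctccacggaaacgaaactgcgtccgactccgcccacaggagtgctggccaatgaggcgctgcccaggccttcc
RefSeq promoters matched 9 of the 10 genes. In the 250 bases before the start, the NRF1 letters were found in 1 of the 9, Polrmt, at 133 bases before the start, and in 2.26% of all 32851 promoters. The ETS letters were found in 4 of the 9 and in 6.91% of all promoters. They began 43 bases before the start of Polrmt, 47 before Tfam, 12 before Trmt10c, and 146, 48 and 11 before Slirp. The 2 motifs did not overlap each other in these windows. A match is a description of letters and shows no binding. Tfb2m, Lrpprc, Pnpt1, Supv3l1 and Elac2 held neither. Genes with a match had estimates on both sides of 0. The stretches just before Tfam, Tfb2m, Slirp and Trmt10c run into exons that GENCODE annotates, of longer transcripts of Tfam and Trmt10c themselves, of Cnst beside Tfb2m and of Alkbh1 beside Slirp, and are not printed.

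Of the core transcription machinery, Tfb2m was higher in knockout in every library, Tfam had the same mean in both groups to within its spread, and Polrmt was within its wild-type range in 1 knockout library and below it in the others. Polrmt (ENSMUSG00000020329, chromosome 10, 79736123 to 79746581, minus strand, mm10) had 36.0, 34.0 and 33.7 CPM in the wild-type libraries (1, 2, 3) and 24.99, 15.7 and 35.8 CPM in the knockout ones. The wild-type libraries lay close together, and knockout 2 held less than any other library. The group values were 34.6 ± 1.25 and 25.5 ± 10.1 CPM (SD, n = 3 each), a log2 fold change of -0.44 (edgeR SE 0.27, adjusted p = 0.326). With the trends removed it was 0.01 (SE 0.20), and without knockout 2 it was -0.19.

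Tfam (ENSMUSG00000003923, chromosome 10, 71225464 to 71238280, minus strand) had 98.3, 83.6 and 91.4 CPM in the wild-type libraries (1, 2, 3) and 80.7, 131 and 63.9 CPM in the knockout ones. Knockout 2 was above the wild-type range and the other knockout libraries below it. The group values were 91.1 ± 7.39 and 92.0 ± 35.0 CPM, with a log2 fold change of 0.01 (edgeR SE 0.25, adjusted p = 0.979). The sign turned in 7 of 17 alternative analyses. Without knockout 2 the log2 fold change was -0.33 (edgeR SE 0.15, adjusted p = 0.186). With all libraries and the trends removed it was -0.11, and over 17 alternative analyses the adjusted p ran from 0.0959 to 0.992.

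Tfb2m (ENSMUSG00000026492, chromosome 1, 179528055 to 179546267, minus strand) had 6.93, 7.63 and 7.39 CPM in the wild-type libraries (1, 2, 3) and 9.59, 9.95 and 9.92 CPM in the knockout ones. The groups did not overlap, and the knockout libraries differed from each other by less than the wild-type libraries did. The log2 fold change was 0.42 (edgeR SE 0.18, adjusted p = 0.161), or 0.25 (SE 0.17, adjusted p = 0.427) with the trends removed. The levels were then 6.89, 8.12 and 8.37 CPM in wild type and 9.39, 8.68 and 9.70 CPM in knockout, still apart. A transcript of Gm1818 on chromosome 12 is 99.3% identical to Tfb2m over 1187 bases, so reads could be split between them. Gm1818 held 0.295 to 0.499 CPM in the wild-type libraries and 0.313 to 0.623 CPM in knockout.

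**Figure D1:**
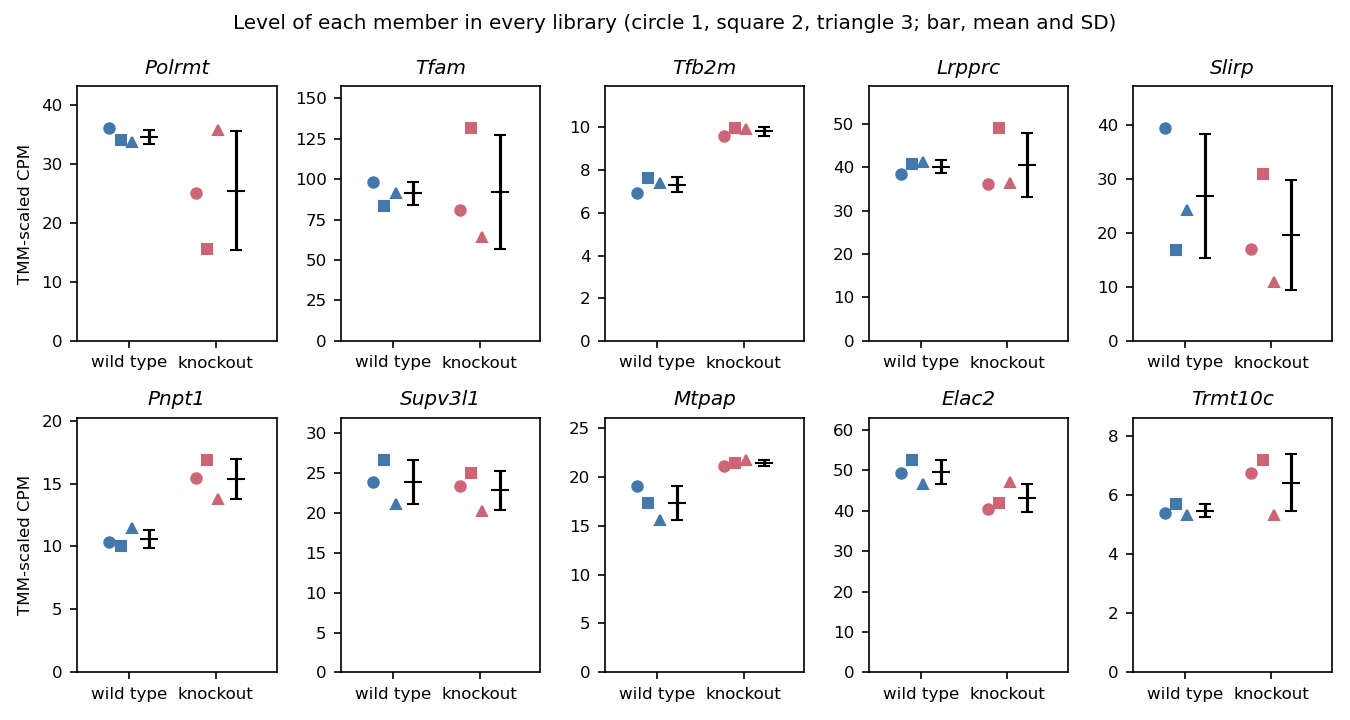
TMM-scaled CPM of each of the 10 genes in 3 wild-type (blue) and 3 knockout (red) libraries, with a linear axis from 0 in each panel, and the mean and SD of each group beside the points. Tfb2m, Pnpt1 and Mtpap have no overlap between the groups, and knockout 2 (square) is lowest of all libraries for Polrmt and highest of all for Tfam.

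Of the complex that stabilises mRNA, Lrpprc had group means of 40.1 ± 1.45 and 40.5 ± 7.30 CPM (SD, n = 3 each) and Slirp varied over 2-fold within each. Lrpprc (ENSMUSG00000024120, chromosome 17, 84705247 to 84790789, minus strand) had 38.5, 40.7 and 41.2 CPM in the wild-type libraries (1, 2, 3) and 36.2, 48.9 and 36.4 CPM in the knockout ones. Knockout 2 was again apart from the other knockout libraries and above the wild-type range. The log2 fold change was 0.01 (edgeR SE 0.17, adjusted p = 0.973), or -0.19 with the trends removed and -0.15 without knockout 2. Slirp (ENSMUSG00000021040, chromosome 12, 87443896 to 87452206, plus strand) had 39.4, 16.8 and 24.3 CPM in the wild-type libraries (1, 2, 3) and 17.1, 30.9 and 10.9 CPM in the knockout ones. The ranges overlapped over most of their width, with the highest value in wild type 1 and the lowest in knockout 3. The log2 fold change was -0.45 (edgeR SE 0.40, adjusted p = 0.512), -0.63 with the trends removed and -0.94 without knockout 2. Transcripts of Slirp and of Snw1 on the opposite strand share 2403 bases, and no strand setting is given for the counting, so the level of Slirp is uncertain. Snw1 itself held 61.7 to 79.0 CPM in the wild-type libraries and 69.7 to 87.1 CPM in knockout. The ratio of Lrpprc to Slirp in CPM was 0.978, 2.42 and 1.697 in wild type and 2.12, 1.58 and 3.34 in knockout, so the partners did not keep a fixed proportion within either group.

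Of the genes for tailing and decay, Pnpt1 and Mtpap were higher in every knockout library before the trends were removed, but overlapped between the groups afterwards, and Supv3l1 overlapped in both. Pnpt1 (ENSMUSG00000020464, chromosome 11, 29130744 to 29161828, plus strand) had 10.4, 10.03 and 11.4 CPM in the wild-type libraries (1, 2, 3) and 15.5, 16.9 and 13.7 CPM in the knockout ones. The lowest knockout library was above the highest wild-type library. The group values were 10.6 ± 0.736 and 15.4 ± 1.57 CPM (SD, n = 3 each), a log2 fold change of 0.53 (edgeR SE 0.17, adjusted p = 0.0894), the largest estimate of the 10 genes. Under the DESeq2 Wald test Pnpt1 passed the threshold (log2 fold change 0.56, DESeq2 adjusted p = 0.0317), as the only 1 of the 10 genes to do so. Over the 17 alternatives its adjusted p ran from 0.0317 to 0.769. It is the most AT-rich of the 10 genes, with 39.2% GC, and with the trends removed its log2 fold change was 0.14 (edgeR SE 0.16, adjusted p = 0.63). The libraries then held 11.4, 11.4 and 13.7 CPM in wild type against 13.7, 13.6 and 12.9 CPM in knockout, and knockout 3 was below wild type 3.

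Supv3l1 (ENSMUSG00000020079, chromosome 10, 62429209 to 62449738, minus strand), the helicase partner of PNPT1, had 23.9, 26.7 and 21.2 CPM in the wild-type libraries (1, 2, 3) and 23.4, 25.04 and 20.2 CPM in the knockout ones. The ranges of the groups overlapped over most of their width, and the log2 fold change was -0.06 (edgeR SE 0.17, adjusted p = 0.841), or -0.04 with the trends removed. The ratio of Pnpt1 to Supv3l1 in CPM was 0.434, 0.376 and 0.540 in wild type and 0.662, 0.674 and 0.680 in knockout, with no overlap. This ratio compares genes of 39.2% and 48.9% GC. Free of the trends it was 0.495, 0.433 and 0.630 in wild type and 0.572, 0.535 and 0.648 in knockout, and the groups overlapped. The antisense gene 4930507D05Rik shares 250 bases with Supv3l1 and held 5.59 to 8.27 CPM in the wild-type libraries and 3.50 to 3.75 CPM in knockout.

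Mtpap (ENSMUSG00000024234, chromosome 18, 4375592 to 4397330, plus strand) had 19.1, 17.3 and 15.6 CPM in the wild-type libraries (1, 2, 3) and 21.1, 21.4 and 21.7 CPM in the knockout ones. The groups did not overlap, and the SD was 1.74 CPM in the wild-type libraries and 0.303 CPM in knockout. The log2 fold change was 0.31 (edgeR SE 0.16, adjusted p = 0.254), or 0.07 (SE 0.16) with the trends removed. The levels were then 21.2, 18.5 and 16.7 CPM in wild type and 19.3, 18.7 and 21.3 CPM in knockout, and the groups overlapped. An antisense gene, Gm26865, shares 1141 bases with Mtpap and held at most 0.407 CPM in any library. Another overlapping gene, AC138768.3, shares 226 bases with it. No strand setting is given for the counting, so the level of Mtpap is uncertain.

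The genes for tRNA excision had overlapping groups. Elac2 (ENSMUSG00000020549, chromosome 11, 64979038 to 65002069, plus strand) had 49.4, 52.6 and 46.7 CPM in the wild-type libraries (1, 2, 3) and 40.5, 41.8 and 47.1 CPM in the knockout ones. Knockout 3 lay within the wild-type range and the others below it. The span of Elac2 overlaps that of Arhgap44, which makes its level uncertain. The log2 fold change was -0.20 (edgeR SE 0.14, adjusted p = 0.406), or 0.09 with the trends removed. Trmt10c (ENSMUSG00000044763, chromosome 16, 56032609 to 56037819, minus strand) had 5.37, 5.70 and 5.32 CPM in the wild-type libraries (1, 2, 3) and 6.74, 7.17 and 5.32 CPM in the knockout ones. Knockout 3 was at the wild-type level and the others above it, with a log2 fold change of 0.23 (edgeR SE 0.21, adjusted p = 0.514), or 0.01 with the trends removed.

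Over the 10 genes, 0 were called higher and 0 lower (edgeR quasi-likelihood test, adjusted p under 0.05), where 3.11% of all 21518 genes tested were called higher and 5.12% lower. At an unadjusted p under 0.05 there were 2, Pnpt1 and Tfb2m, and 27.1% of all genes. DESeq2 called 1 higher and 0 lower, against 7.11% and 8.15% of all genes, and with the trends removed edgeR called 0 of the 10, against 0.0186% of all genes higher and 0.0651% lower. The groups did not overlap for 3 genes, all higher in knockout, and this was so of 14.6% of all genes tested, with another 18.1% lower. Once the trends were removed, the groups stayed apart for 1 of the 10, Tfb2m, against 13% of all genes higher and 14.5% lower. The median log2 fold change was 0.01 over the 10 genes and -0.01 over all genes tested. These counts describe the genes and are not read as a property of the set. The genes had 162 to 4630 counts in a library, and SEs between 0.14 and 0.40. The 95% intervals of the log2 fold changes lay between -1.37, for Slirp, and 0.93, for Pnpt1. Rises over 1.9-fold and falls over 2.58-fold were thus outside every interval, and smaller differences were not resolved for most genes.

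**Figure D2:**
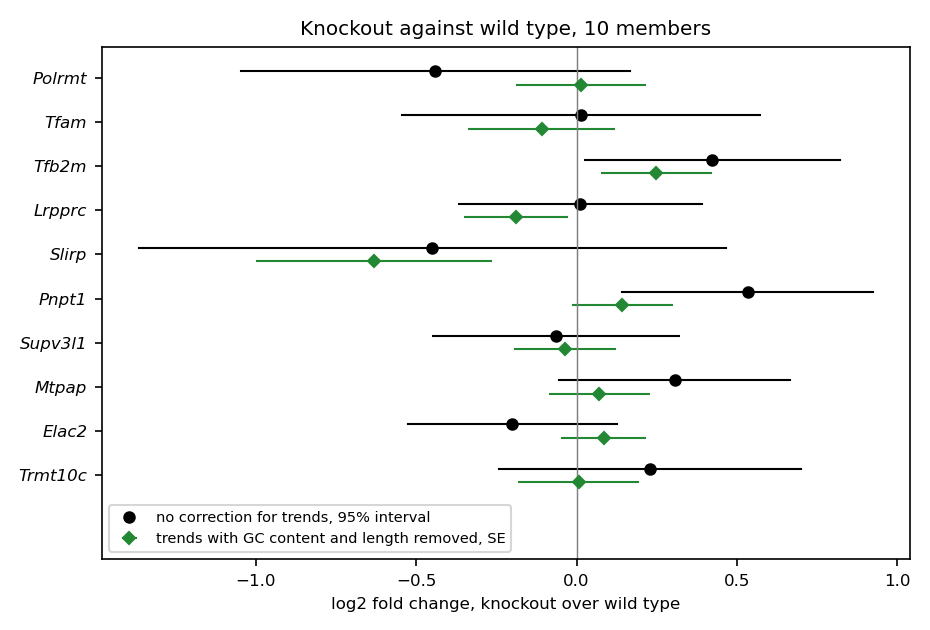
Log2 fold change of each of the 10 genes, knockout over wild type. Black points and lines give the estimate and 95% interval of the edgeR fit, and green points and lines the estimate and SE after both trends (GC content, exon length) were taken out. The black intervals lie between -1.37 and 0.93. The green estimates of Pnpt1, Tfb2m, Mtpap, Trmt10c, Polrmt, Supv3l1 and Elac2 are nearer 0 than the black. Those of Tfam, Lrpprc and Slirp are farther from 0.

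The estimates followed base composition. Of the 5 genes with less than 45% GC in their exons, 4 had an estimate above 0, the exception being Slirp, and the GC-richest genes, Polrmt with 60.3% and Elac2 with 54.3%, had estimates below 0. Spearman's rho between log2 fold change and GC content was -0.758 over the 10 genes and -0.716 over 58 other genes of mitochondrial RNA and DNA maintenance. It was -0.248 and -0.124 once the trends were removed, a step that weakens this correlation by construction. The trends rose with GC content in each wild-type library and fell in each knockout library. Their removal can thus also take out differences between the groups, which was not tested. The points of these correlations share the same 6 libraries, and the values are descriptions. The median absolute log2 fold change of the 10 genes went from 0.27 to 0.10, while that of all genes tested went from 0.38 to 0.31.

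**Figure D3:**
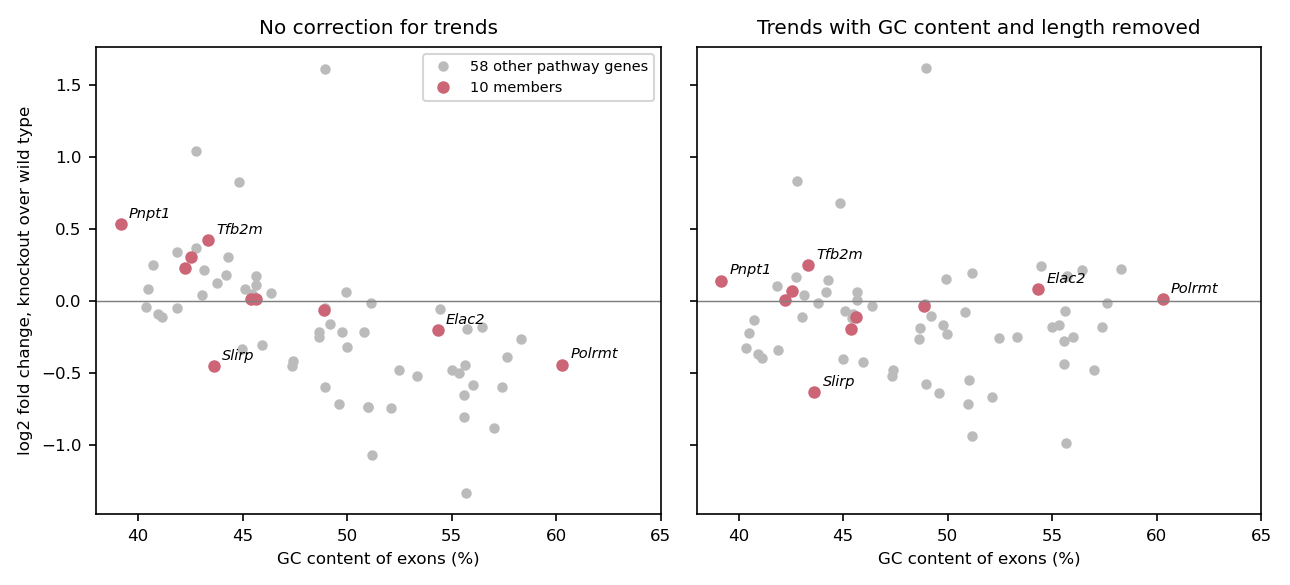
Log2 fold change, knockout over wild type, against the GC content of exons in percent, for the 10 genes (red) and 58 other pathway genes (grey), before (left) and after (right) both kinds of trend were taken out of each library. On the left the points slope down from Pnpt1 at 39.2% GC to Polrmt at 60.3%, and on the right both lie near 0. Removal of the trends flattens the slope by construction.

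The mRNAs of the mitochondrial genome, whose difference led to the choice of the 10 genes, summed to 6605, 8800 and 8854 CPM in wild type 1, 2 and 3 and to 59082, 13749.5 and 46279.5 CPM in knockout 1, 2 and 3, or 0.640% to 0.920% of counts in wild type and 5.70%, 1.51% and 4.25% in knockout. Relative to the wild-type mean, knockout 1, 2 and 3 held 7.31, 1.70 and 5.72 times as much. In the same libraries Polrmt was at 0.723, 0.453 and 1.04 times its wild-type mean, Tfam at 0.886, 1.44 and 0.702 times and Slirp at 0.636, 1.15 and 0.406 times. Tfb2m was at 1.31, 1.36 and 1.36 times and Mtpap at 1.22, 1.23 and 1.25 times. Knockout 2, with the least mitochondrial mRNA of the knockout libraries, held the most of 7 of the 10 genes. These were Tfam, Tfb2m, Lrpprc, Slirp, Pnpt1, Supv3l1 and Trmt10c, and Polrmt was lowest there of the 3. The share of all genes tested that were highest in knockout 2 was not computed. The count is thus not read as a property of these genes. Tfb2m and Mtpap were nearly equal in the 3 libraries. With 3 knockout libraries no relation between these levels can be tested. Knockout 2 is also the library with the strongest GC trend. After their removal it held the most of 5 of the 10 genes and the least of 3. Polrmt was then at 0.930, 0.810 and 1.29 times its wild-type mean in knockout 1, 2 and 3, Tfam at 0.823, 1.29 and 0.666 times and Slirp at 0.590, 0.966 and 0.378 times.

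**Figure D4:**
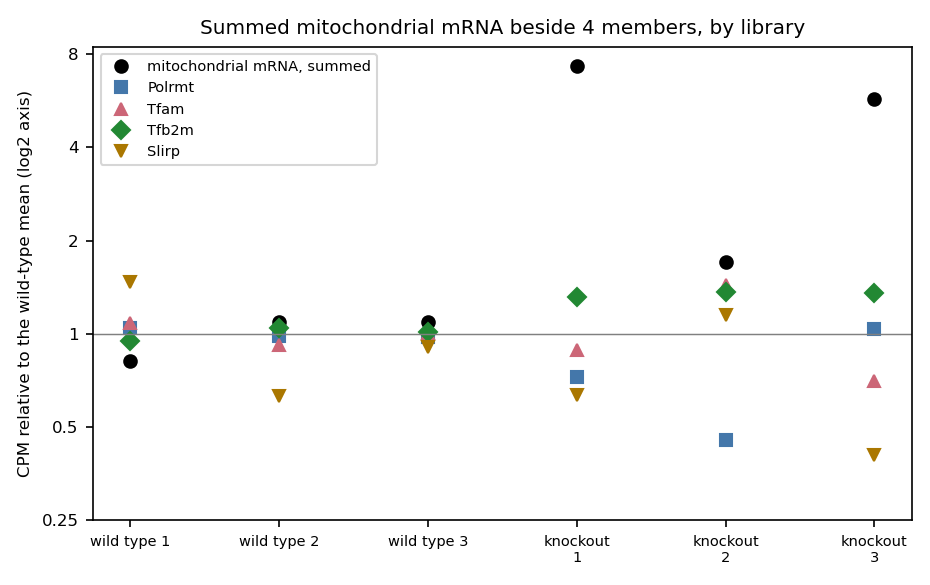
Summed CPM of the 13 mitochondrial mRNAs (black) and CPM of Polrmt, Tfam, Tfb2m and Slirp in each library, relative to the mean of the 3 wild-type libraries, on a log2 axis. The mitochondrial mRNAs reach 7.31, 1.70 and 5.72 in knockout 1, 2 and 3, and the 4 genes stay between 0.406 and 1.47 in all 6 libraries.

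Per length of exon, the order of levels in wild type was Tfam at 20.5 ± 1.67 CPM per kb, Elac2 at 14.2 ± 0.846, Slirp at 8.64 ± 3.70, Supv3l1 at 8.05 ± 0.927, Polrmt at 7.38 ± 0.266, Lrpprc at 4.72 ± 0.171, Pnpt1 at 3.02 ± 0.209, Mtpap at 2.79 ± 0.280, Tfb2m at 2.61 ± 0.128 and Trmt10c at 1.82 ± 0.0683 (SD, n = 3). Neighbours overlapped within Slirp, Supv3l1 and Polrmt and within Pnpt1, Mtpap and Tfb2m, and the other steps of the order were larger than the spread. The annotated exons of Slirp include the stretch shared with Snw1, so its level per length is uncertain. In knockout, Slirp with Supv3l1 and Mtpap with Tfb2m exchanged places, and in both pairs the ranges overlapped in wild type. Tfam stayed first and Trmt10c last in both groups. Tfam stood at 20.5 CPM per kb beside 7.38 for Polrmt and 2.61 for Tfb2m. These are RNA levels per gene, divided by the length of all annotated exons. The counts of Tfam do not separate the form whose protein lacks the import signal.

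Other genes of mitochondrial RNA and DNA maintenance were measured from 5 lists with 58 genes, all of which passed the filter. Of these, 0 were called higher and 4 lower (edgeR, adjusted p under 0.05), against 3.11% and 5.12% of all genes tested. The 4 are 6.90% of the 58, a share near that of all genes. The median log2 fold change was -0.19. With the trends removed 0 were called and the median was -0.15. Of 8 genes listed under transcription, some of which also have other roles, 0 were called higher and 0 lower. The smallest p-values there were of Mterf4, which takes part in assembly of the mitochondrial ribosome (20.9 ± 3.51 and 15.3 ± 2.05 CPM, an estimate of -0.45 in log2, SE 0.19, adjusted p = 0.173), and Mterf1a, a termination factor with a close paralog in mouse, Mterf1b, which makes its level uncertain (0.54, SE 0.26, adjusted p = 0.228). Removal of the trends gave -0.52 and 0.14. Of 12 processing genes, 0 were called higher and 0 lower. Ptcd1, a pentatricopeptide protein gene, was at 60.4 ± 9.98 and 40.3 ± 4.11 CPM (-0.58, SE 0.17, adjusted p = 0.0678), and Tbrg4, also known as Fastkd4, at 58.3 ± 5.93 and 41.9 ± 8.53 CPM (-0.48, SE 0.18, adjusted p = 0.131). Once the trends were removed the 2 estimates were -0.25 and -0.18. Prorp, the nuclease subunit of RNase P beside TRMT10C, was at 9.23 ± 0.218 and 10.4 ± 0.627 CPM (0.18, SE 0.17, or 0.07 with the trends removed), and was added to the named genes after its values were seen.

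Among all 21518 genes tested, 10908 had estimates below 0 and 10610 above, with 3.11% called higher and 5.12% lower. The counts of each list that follow are small and are not read as a property of the list. Of 7 genes of RNA stability and decay, 6 had estimates below 0 and 1 above, and 0 were called higher and 1 lower. It was Dhx30, an RNA helicase gene of mitochondrial RNA granules and ribosome assembly, which had 399, 349 and 331 CPM in the wild-type libraries (1, 2, 3) and 189, 230 and 229 CPM in the knockout ones (log2 fold change -0.74, SE 0.15, edgeR adjusted p = 0.0251). Ddx28, another helicase gene of the granules, had a log2 fold change of -0.81 (SE 0.22, adjusted p = 0.0575). Of 20 RNA modification genes, 13 had estimates below 0 and 7 above, from -1.33 to 1.61. Of these, 0 were called higher and 2 lower. Gtpbp3, which modifies the wobble uridine of mitochondrial tRNAs, fell from 5.02 ± 1.05 CPM to a level of 1.99 ± 0.178 CPM (-1.33, SE 0.25, edgeR adjusted p = 0.0214), and Rpusd3, a pseudouridine synthase gene, fell from 10.1 ± 1.57 to 5.49 ± 0.885 CPM (-0.88, SE 0.22, adjusted p = 0.0423). Of 11 genes of mitochondrial DNA replication, 8 had estimates below 0 and 3 above, and 0 were called higher and 1 lower. It was Polg, the catalytic subunit of the DNA polymerase, which fell from 120 ± 12.3 to 71.6 ± 5.52 CPM (-0.74, SE 0.14, edgeR adjusted p = 0.0227). Primpol, a primase-polymerase gene, had a log2 fold change of 1.05 (SE 0.28, adjusted p = 0.0548). After removal of the trends the estimates were -0.71 for Dhx30, -0.44 for Ddx28, -0.99 for Gtpbp3, -0.48 for Rpusd3, -0.67 for Polg and 0.84 for Primpol, and none of them passed. Calls also depended on single libraries: with 1 library left out, 0 to 10 of the 58 genes passed, the 10 without knockout 2. Over the 17 alternatives the adjusted p ran from 0.00206 to 0.247 for Dhx30, 0.000281 to 0.221 for Gtpbp3, 0.00704 to 0.36 for Rpusd3 and 0.0015 to 0.257 for Polg. With the trends removed it was 0.0976 for Dhx30, 0.302 for Ddx28, 0.0746 for Gtpbp3, 0.198 for Rpusd3, 0.103 for Polg and 0.153 for Primpol. The spans of Mterf4, Ptcd1, Prorp, Dhx30, Ddx28, Gtpbp3, Rpusd3, Polg and Primpol overlap another tested gene, so their levels are uncertain.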

How the data were processed

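RNA of whole testes was measured in 3 wild-type and 3 knockout samples. The authors deposited a table of raw, unnormalized counts for each sample. The submitters' processing notes name Trimmomatic, HISAT2, HTSeq and mm10, with no versions; the annotation release, strand setting and rule for multi-mapping reads are not given in these sources. Of 51826 identifiers, 51633 matched GENCODE M21 (GRCm38), which gave symbols, coordinates, exon lengths and GC content. Prorp was matched through a RefSeq synonym.

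All 6 samples entered a quasi-likelihood test in edgeR 4.0.16 under R 4.3.3, after filterByExpr and TMM scaling, with Benjamini-Hochberg adjustment over 21518 genes. Positive log2 fold changes mean higher in knockout, and SEs and 95% intervals come from the fold change, the F statistic and its degrees of freedom. Trends with GC content and exon length were removed with offsets from splines (5 degrees of freedom) fitted to genes with a mean log2 CPM above 2, with a prior count of 2. DESeq2 1.42.0 was an alternative. The main edgeR fit was run on simulated counts with and without a GC trend. That trend was the same in all knockout samples, and none with length was simulated. The fit with offsets was run with the trend only, and DESeq2 and the replicate block without it. The simulated setting thus differed from the trends of these libraries. Shared sequence was found with blastn at 95% identity over at least 200 bases, in annotated transcripts only.

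The 10 genes, the lists and the alternatives were chosen with earlier results of these data known. Genes named are the 10, and of each other list the 2 with the smallest p and any past the threshold. A floor of 3 counts is 0.0763 to 0.0985 CPM and covers counting error only. The labels give no pairing of samples, so the numbers were not taken as pairs in the main analysis. Deviations of same-numbered samples from their group means had a Pearson's r of -0.475, -0.119 and -0.141 over genes. These deviations also hold the trends of each library, so the r values cannot show whether samples were paired.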

Additional observations from a re-analysis of the deposited data

How the results depend on the processing

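The count of genes past the threshold was 1770 in the main analysis, 1010 without a filter on low counts, 3284 with DESeq2, 18 with GC content and length offsets and 8 with GC content offsets. Leaving out a replicate gave 1 to 3149, with 5, 1 and 425 without wild type 1, 2 and 3 and 1, 3149 and 327 without knockout 1, 2 and 3. With offsets and without knockout 2, an analysis chosen after seeing the data, it was 2910. The replicate number as a block gave 21 genes, or 5 with the offsets, and called 0 of the 10 genes and 0 of the 58 other pathway genes in either case. No sample correlated best with the same-numbered sample of the other group, which cannot show whether samples were paired.

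Of the 10 genes, 1 passed with DESeq2 (Pnpt1) and 0 under each of the other alternatives, also with any replicate left out. Their median log2 fold change ran from -0.14 to 0.17 with a replicate left out. Of the other pathway genes, 4 in the main analysis, 12 passed with DESeq2, 0 with either set of offsets, 0 to 10 with a replicate left out, and 7 with offsets and without knockout 2. Of the 4 called pathway genes, Dhx30, Gtpbp3 and Polg passed in 8 of 17 alternatives and Rpusd3 in 4, with the same sign in all 17.

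Log2 fold changes turned in sign as follows, in 24 of 170 values, and none of these passed the threshold. With GC content and length offsets they were 0.013 for Polrmt, -0.11 for Tfam, -0.19 for Lrpprc and 0.085 for Elac2. With GC content offsets they were 0.024 for Polrmt, -0.13 for Tfam, -0.14 for Lrpprc, 0.084 for Elac2 and -0.030 for Trmt10c. The replicate block gave -0.052 for Tfam and -0.0016 for Lrpprc, and with the offsets -0.16 for Tfam, -0.21 for Lrpprc and 0.085 for Elac2. With offsets and without knockout 2 they were 0.15 for Polrmt, -0.42 for Tfam, -0.35 for Lrpprc, 0.038 for Elac2 and -0.019 for Trmt10c. With a replicate left out the range was -0.33 to 0.24 for Tfam, -0.15 to 0.10 for Lrpprc and -0.15 to 0.036 for Supv3l1. The signs of Tfb2m, Pnpt1, Mtpap and Slirp were the same in all 17 alternatives. Beyond what each alternative changes by construction, the cause was not tested.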

Other observations

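The spread among knockout libraries differed between the 10 genes. The SD of log2 CPM in knockout was larger than in wild type for 7 of 10, against 56.8% of all genes tested. It was 0.60 against 0.05 for Polrmt, 0.53 against 0.12 for Tfam and 0.25 against 0.05 for Lrpprc. With the trends removed it was larger in knockout for 7 of 10, a count for which the share of all genes was not computed. The SDs were then 0.34 against 0.21 for Polrmt, 0.49 against 0.13 for Tfam and 0.27 against 0.05 for Lrpprc. Tfb2m and Mtpap went the other way, with 0.03 against 0.07 and 0.02 against 0.14, or 0.08 against 0.15 and 0.10 against 0.17 with the trends removed. Supv3l1 was at 0.16 against 0.17, or 0.18 against 0.14 with the trends removed. With 3 libraries a group, an SD is itself imprecise, and the difference of spread was not tested. The median SD was 0.09 in wild type and 0.19 in knockout over the 10 genes, and 0.25 and 0.30 over all genes.

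The profiles most alike, by the root mean square difference of log2 CPM over the 6 libraries after subtraction of each gene's mean, were Elac2 with Top1mt, a mitochondrial topoisomerase gene (0.060), Mtpap with Tfb1m, the rRNA methyltransferase gene (0.093), and Supv3l1 with Grsf1, an RNA granule protein gene (0.099), among 625 pairs that held at least 1 of the 10 genes. These pairs share their libraries, and the trends were not removed from these profiles. The GC content of exons was 54.3% for Elac2 and 55.7% for Top1mt. It was 42.5% for Mtpap and 43.1% for Tfb1m, and 48.9% for Supv3l1 and 49.9% for Grsf1. Each pair was thus alike in base composition, and the part of this in the likeness was not tested.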
